A study of Caenorhabditis elegans with 3 samples.

Results

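Hedgehog-related and patched-related genes were examined for peaks of UNC-55, a nuclear receptor of the COUP-TF family, in chromatin immunoprecipitation followed by sequencing (ChIP-seq) of whole Caenorhabditis elegans. Members were the protein-coding genes of Ensembl WBcel235 whose symbol begins with wrt, grd, grl, qua, hog, ptr or ptc followed by a number. They came to 85 of 19973 nuclear protein-coding genes, 59 hedgehog-related (10 wrt, 16 grd, 31 grl, 1 qua and 1 hog) and 26 patched-related (24 ptr and 2 ptc). The symbols alone chose them, with no measured value.

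All samples were L2 larvae of strain NC1639, of mixed sex and with no age given beyond the stage, and formed 1 group of 3 biological replicates. The strain carries wdIs49, an integrated transgene in which the promoter of ttr-39, active in D-type GABA motor neurons, drives UNC-55a fused to GFP, with dpy-20+ as the marker. One note, on replicate 3, calls the tag GFP-FLAG, and preparation was described differently there (microtip sonication, animals from the laboratory itself) than in replicates 1 and 2 (a fragment range, animals from a stock centre), so that preparation and replicate 3 cannot be told apart. There was no untagged or mutant sample, and control reads were not analysed here. The lists come from whole animals. Among the cells that make the tagged protein, strong occupancy in few and weak occupancy in many cannot be told apart.

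Caenorhabditis elegans has no typical Hedgehog ligand and no Smoothened. In its place it has large families of secreted proteins, warthog (wrt), groundhog (grd), ground-like (grl) and quahog (qua), several of which carry the C-terminal Hog domain that in Hedgehog performs self-cleavage. Patched (ptc) and patched-related (ptr) proteins are membrane proteins with a sterol-sensing domain. Many genes of both kinds are known from the epidermis and its seam cells, from glia-like socket cells, and from molting and cuticle formation.

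A gene was counted when the summit of a peak lay from 2000 bp upstream to 500 bp downstream of one of its annotated transcript starts (its promoter window). In the optimal list, the 5993 peaks that passed the authors' threshold for irreproducible discovery rate (IDR), 9 of 85 members had a summit (10.6%), against 5094 of 19973 protein-coding genes (25.5%). Hedgehog-related genes had summits at 6 of 59 members (10.2%) and patched-related genes at 3 of 26 (11.5%). By family, summits lay at 1 of 10 wrt genes (wrt-1), 1 of 16 grd genes (grd-6), 4 of 31 grl genes (grl-8, grl-9, grl-17 and grl-26), 2 of 24 ptr genes (ptr-5 and ptr-23) and 1 of 2 ptc genes (ptc-1). The single qua gene, qua-1, and the single hog gene, hog-1, had none there. These shares describe the lists. No test was made of the difference from all genes.

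The share was alike in the replicates. Among the 5993 peaks of highest signal in each, summits lay at 9, 8 and 11 members in replicates 1, 2 and 3, a mean of 11% ± 1.77 of members (SD, n = 3), against 25.7%, 26.1% and 25.8% of all protein-coding genes (25.9% ± 0.202). Replicate 1 gave the 9 genes of the optimal list. Replicate 2 gave 8 of them, without ptr-5. Replicate 3 gave all 9 and also wrt-5 and grl-23. In every replicate the hedgehog-related share (10.2%, 10.2% and 13.6%) and the patched-related share (11.5%, 7.69% and 11.5%) lay under that of all genes.

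**Figure D1:**
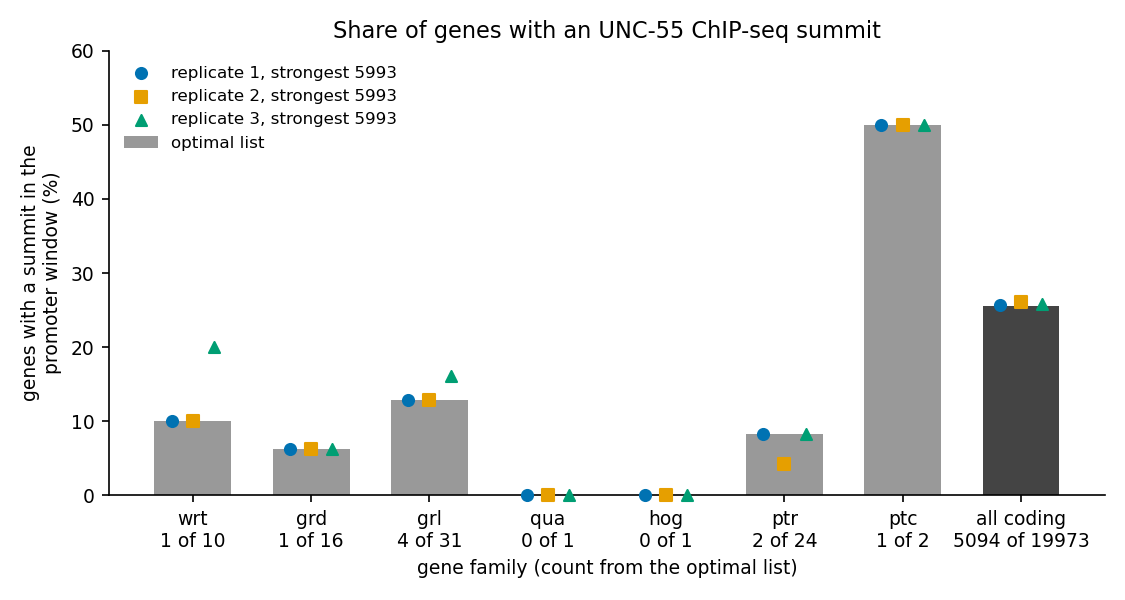
Share of genes with a summit in the promoter window (percent, vertical axis) for each family and, at the right, for all protein-coding genes. Bars show the optimal list and points the strongest 5993 peaks of each replicate. The wrt, grd, grl and ptr bars stand at 6.25% to 12.9% and the bar for all genes at 25.5%. The ptc bar, at 50%, rests on 1 of 2 genes.

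The share was also set against all genes of the same chromosome and of the same number of starts. Chromosome V held 32 of the 85 members, and 4 of these had an optimal summit (12.5%), against 15.7% of all genes there. On chromosome III, 0 of 7 members had one, against 39.2% of all genes there. Were each chromosome's members to have the share of all its genes, 19.7 members (23.2%) would have a summit. A single annotated start was present in 66 members, of which 6 had a summit (9.09%), against 20.9% of all genes with 1 start. With several starts, 3 of 19 members had one (15.8%), against 37.6% of all such genes. Weighted by this class, the share of all genes came to 24.7%.

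The 9 members shared 8 peaks, since 1 peak lay in the windows of both grl-8 and grl-9. Their signals, values of the authors' peak caller that rank peaks within a list, ran from 68.0 to 231 with a median of 140, against a median of 109 for all optimal peaks and 124 for the 4134 optimal peaks in any promoter window. The highest rank of a member peak in the optimal list was 902. The sequences of 4 of the 8 are given in ce11 on the strand of the member, because they show the strongest peak of each kind of gene (ptc-1 and grl-17), a peak on a tRNA gene (grl-26) and a weak peak shared by neighbours (grl-8 and grl-9, the 101 bases around the summit). Capitals mark the 21 bases centred on the summit, and at grl-26 the 72 bases of the tRNA gene.
ptc-1, chrII:7891928-7892156, plus strand: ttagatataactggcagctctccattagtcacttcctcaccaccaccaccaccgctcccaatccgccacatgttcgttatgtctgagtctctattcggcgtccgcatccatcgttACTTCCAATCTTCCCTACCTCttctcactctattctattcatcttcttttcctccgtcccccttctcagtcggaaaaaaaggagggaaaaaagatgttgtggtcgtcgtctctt
grl-17, chrV:13565366-13565555, minus strand: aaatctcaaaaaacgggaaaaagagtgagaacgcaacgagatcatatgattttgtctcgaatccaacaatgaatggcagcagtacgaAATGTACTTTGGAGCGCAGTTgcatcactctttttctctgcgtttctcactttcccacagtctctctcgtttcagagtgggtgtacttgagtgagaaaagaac
grl-26, chrIV:322613-322731, minus strand: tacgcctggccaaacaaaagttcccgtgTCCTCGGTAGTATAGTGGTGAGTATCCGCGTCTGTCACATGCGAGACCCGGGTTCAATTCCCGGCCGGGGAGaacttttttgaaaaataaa
grl-8 and grl-9, chrV:6733538-6733638, minus strand: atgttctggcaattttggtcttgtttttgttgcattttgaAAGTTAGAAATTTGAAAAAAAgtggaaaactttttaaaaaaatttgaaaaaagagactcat

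The nuclear receptor half-site AGGTCA was looked for in the 50 bp to either side of a summit, in both orientations. It was found at 0 of the 8 member peaks, against 82 of 5993 optimal peaks (1.37%). Its shorter core GGTCA, which lies inside it, was found at 0 of 8 against 6.27% within 50 bp, and within 100 bp at 1 of 8, the ptr-5 peak, against 12.9%. With shares this low among all optimal peaks, 8 peaks could hardly show a difference. GC content within 50 bp of the summit ran from 24.8% (ptr-5, and the peak of grl-8 and grl-9) to 57.4% (grl-26), with a median of 40.1%, against 43.6% for all optimal peaks.

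Of the hedgehog-related genes, the strongest peak lay at grl-17, which encodes a ground-like protein (WBGene00001726, chromosome V, 13561973 to 13563941, minus strand). The peak (13565366 to 13565555, intergenic, signal 224) ranked 953 in the optimal list, and its summit 1121, 854 and 1035 in replicates 1, 2 and 3. The summit lay 1517 bp upstream of grl-17 but only 405 bp upstream of slrp-1, whose start lies on the other side and which is transcribed away from grl-17. The groundhog gene grd-6 followed (WBGene00001695, chromosome V, 9221866 to 9224354, plus strand, 4 annotated starts). Its peak (9220553 to 9220747, intergenic, signal 193) ranked 1300, and 1166, 1797 and 1337 in the replicates. The summit lay 1208 bp upstream of the nearest grd-6 start, and the next coding start, of pacs-1, was 3400 bp away on the other side.

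The warthog gene wrt-1 had a peak 1697 bp upstream of its start (WBGene00006947, chromosome II, 7530996 to 7533246, plus strand; peak 7529233 to 7529400, intergenic, signal 153). It ranked 1965, and 1786, 2153 and 1670 in replicates 1, 2 and 3. Another coding gene, ZK1290.5, lies between this peak and wrt-1, and the summit was 344 bp upstream of its start. The convergent neighbour wrt-10 had no optimal summit, and its nearest was 3240 bp upstream.

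At grl-26, a ground-like gene on chromosome IV (WBGene00001735, 321514 to 322814, minus strand), the peak lay inside the gene, in an intron 133 bp downstream of its start (322613 to 322731, signal 119). It ranked 2710, and 2707, 3621 and 2286 in the replicates. The summit fell inside an annotated tRNA gene of 72 bp on the same strand (WBGene00023092, 322632 to 322703), which a noncoding RNA gene, K02D7.8, overlaps on the other strand. The printed sequence holds GGTTCAATTCC, a match to the B box, the internal promoter element of tRNA genes bound by TFIIIC, written here with any base allowed at positions 6 and 8 of those letters. That motif was chosen after this sequence was seen, so its match here was fixed in advance and only describes the peak. Looked for in either orientation and at most 50 bp from the summit, the motif was found at 1 of 8 member peaks, this one. It was found at 47 of all 5993 optimal peaks (0.784%), of which 37 had their summit inside a tRNA gene. In all, 77 of 5993 optimal summits (1.28%) lay inside a tRNA gene, and 77 of 612 tRNA genes held one. No other member had a tRNA gene in its window. Occupancy at the tRNA gene and at grl-26 cannot be told apart.

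The neighbouring ground-like genes grl-8 and grl-9 lie in tandem on the minus strand of chromosome V (WBGene00001717, 6731831 to 6733095, and WBGene00001718, 6730216 to 6731694). Their shared peak (6733420 to 6733755, intergenic, signal 68.0) lay 493 bp upstream of grl-8 and 1894 bp upstream of grl-9, with the whole of grl-8 between it and grl-9. It ranked 4542, the weakest of the members' peaks, and 4008, 5352 and 5536 in replicates 1, 2 and 3.

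Of the patched-related genes, ptc-1 had the strongest peak of all members. It encodes a Patched homologue known to be needed for cytokinesis in the germ line (WBGene00004208, chromosome II, 7893222 to 7900515, plus strand). The peak (7891928 to 7892156, intergenic, signal 231) ranked 902, and 904, 1237 and 696 in replicates 1, 2 and 3. Its summit lay 1169 bp upstream, with no other coding start nearer than 8569 bp, and 5 bp from the end of the noncoding RNA gene T01H3.7, which overlaps the peak on the other strand. In replicate 1 the peak was 102 bp wide and covered 44.5% of the optimal peak. The other Patched homologue, ptc-3 (WBGene00004210), had no summit in its window in any list, and its nearest optimal summit was 8969 bp upstream.

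The patched-related gene ptr-23 (WBGene00004237, chromosome I, 14906792 to 14913083, plus strand) had a peak in an intron, 173 bp downstream of its start (14906848 to 14907084, signal 128). This ranked 2500, and 3175, 1680 and 2056 in replicates 1, 2 and 3. At ptr-5 (WBGene00004220, chromosome X, 17318584 to 17326558, plus strand) the peak lay 1547 bp upstream (17316869 to 17317204, intergenic, signal 68.4). It ranked 4528, and 3395, 7623 and 5235 in the replicates, so that replicate 2 placed it outside its 5993 strongest peaks. The ptr-5 ranks spread more widely than those of the other 8 members.

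**Figure D2:**
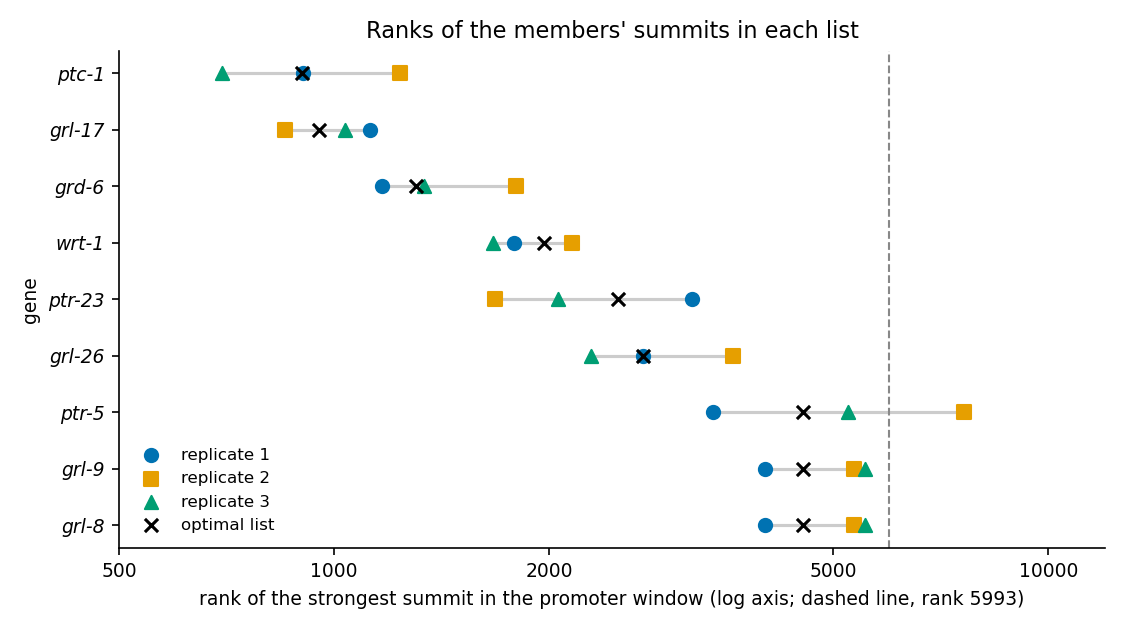
Rank of the strongest summit in the promoter window (horizontal axis, logarithmic, 1 is the highest signal) of the 9 members with an optimal summit, in the 3 replicates and in the optimal list. Ranks in different lists are of lists of different length. Of the 27 replicate points, 26 lie left of the dashed line at rank 5993, and the point right of it is ptr-5 in replicate 2 at 7623.

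Most of the members' summits lay far upstream within the window. Of the 9 pairs of member and summit, 6 were more than 1000 bp upstream (66.7%), against 26.5% of all 6026 pairs of gene and summit, and the median distance was -1208 bp against -344 bp (negative upstream). A member's start was the nearest coding start in 6 of the 9 pairs (66.7%). The exceptions were grl-17, wrt-1 and grl-9, each among the members with a summit more than 1000 bp upstream. Their summits lay 405, 344 and 493 bp upstream of the nearer starts of slrp-1, ZK1290.5 and grl-8. Over all pairs this share was 68.6%, which is fixed by how often windows share a peak, since each peak was given to its nearest start only. With a window of 1000 bp upstream to 200 bp downstream, 3 of 85 members remained (3.53%: grl-8, grl-26 and ptr-23), against 19.9% of all genes. With 500 bp upstream to 100 bp downstream, grl-8 alone remained (1.18%), against 15.9%.

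**Figure D3:**
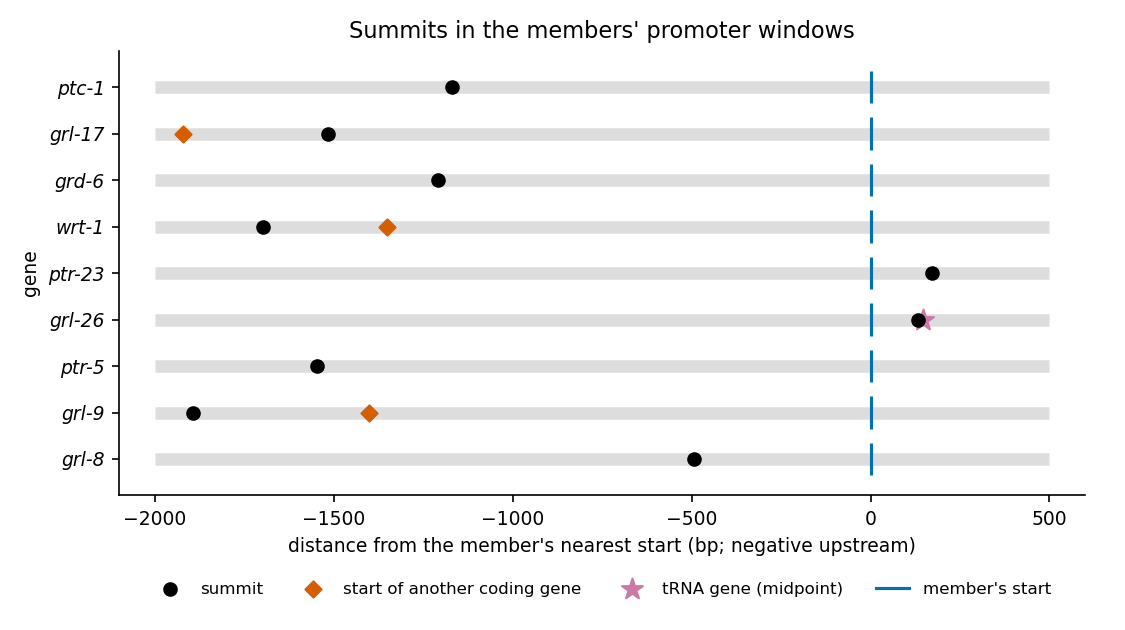
Position of the optimal summit (black points) relative to the nearest start of each of the 9 members (vertical bar at 0), in bp, with the promoter window in grey. Diamonds mark starts of other coding genes and the star the tRNA gene at grl-26. Of the 9 summits, 6 lie more than 1000 bp left of the start, and those of grl-26 and ptr-23 lie right of 0.

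An optimal summit lay within 5000 bp of a start, on either side, at 26 of 85 members (30.6%), against 43.1% of all genes. Of these 26 members, 17 had no summit in the window. The window lies within 5000 bp of a start, so the step between the shares reflects summits outside it. That step was no smaller for members (10.6% to 30.6%) than for all genes (25.5% to 43.1%). It was not tested. The shares by distance that follow take in genes with a summit in the window (10.6% of members, 25.5% of all genes). They thus restate that count at least in part. They do not show that members without a summit in the window lay farther from optimal summits than other such genes. Of all 85 members, 59 had none within 5000 bp (69.4%), against 56.9% of all protein-coding genes, and 39 had none within 10000 bp (45.9%), against 40% of all genes. The last of these shares lay close to that of all genes. The median distance from a member's start to the nearest optimal summit was 8969 bp, 8211 bp for hedgehog-related and 9480 bp for patched-related genes, against 6785 bp for all protein-coding genes. Within 2000 bp, 15.3% of hedgehog-related and 11.5% of patched-related genes had one, against 28% of all genes. Within 20000 bp these were 67.8% and 88.5%, against 78.4%, and within 50000 bp 96.6% and 100%, against 94.6%. Gene bodies added grl-14 (signal 70.5, coding exon), grl-18 (signal 57.8, coding exon) and ptr-13 (signal 70.8, intron), named here after their values were seen. Together with the window this gave 12 of 85 members (14.1%), against 27.2% of all genes.

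**Figure D4:**
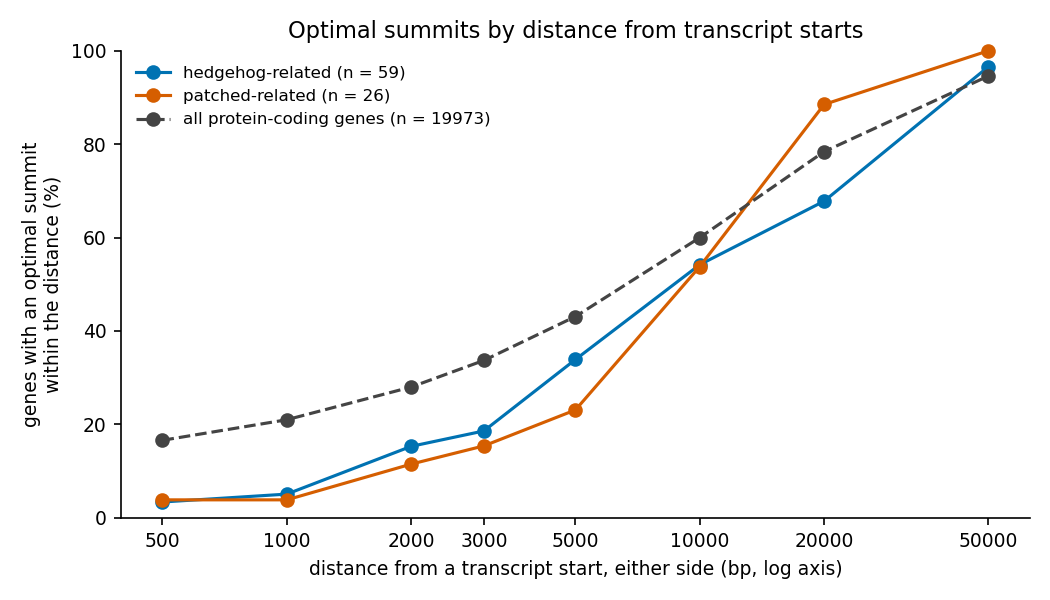
Share of genes (percent, vertical axis) with an optimal summit within a distance of a transcript start on either side (bp, logarithmic horizontal axis). The hedgehog-related and patched-related curves lie under that of all genes up to 10000 bp, where they stand at 54.2% and 53.8% against 60%. The patched-related curve lies above it at 20000 bp. At 50000 bp both lie above it, at 96.6% and 100% against 94.6%.

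Weaker calls were more common. In the relaxed pooled list of 30000 peaks, 20 of 85 members had a summit (23.5%), against 43.2% of all genes, 12 of them hedgehog-related and 8 patched-related. The 11 members beyond the optimal list were led by wrt-5 (signal 44.5, rank 6119) and grl-23 (signal 37.6, rank 6905), against a lowest optimal signal of 45.8. A separate optimal summit lay 856 bp downstream of a wrt-5 start, past the end of the window. The strongest wrt-5 summits in the window ranked 6103, 16049 and 5612 in replicates 1, 2 and 3. They lay at different positions, -1339, -857 and -693 bp from the nearest start (negative upstream). Those of grl-23 ranked 15746, 7571 and 5502, at -1642, -1615 and -1599 bp. The others lay at rank 16107 or beyond. They included ptr-12, ptr-21 and ptr-17 (signals 15.4, 15.3 and 11.7), hog-1 (12.3, 62 bp upstream), grl-20 (10.8), grd-15 (10.4, 59 bp upstream) and grd-8 (8.49).

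In the replicates' whole relaxed lists, 30, 26 and 34 members had a summit in replicates 1, 2 and 3 (35.3%, 30.6% and 40%), against 47.1%, 48.3% and 48.7% of all genes. In the lists of all 3 replicates, 13 members had one (15.3%), against 34.9% of all genes. Beyond the 9 of the optimal list these were wrt-5, grl-23, hog-1 and ptr-11. Of these, grl-23 alone had its strongest summits at like distances in the 3 replicates. Those of hog-1 lay at -1367, -1726 and -183 bp in replicates 1, 2 and 3 (negative upstream). Those of ptr-11 lay at -1308, 132 and -839 bp. A summit in all 3 lists thus need not be the same peak. In the lists of 1 or 2 replicates, 17 and 17 members had a summit (20.0% each), against 17.1% and 11.2% of all genes. The qua-1 gene had a summit in replicate 3 alone (rank 11052). No summit was found in the windows of 38 members (44.7%) in any replicate or in the pooled list, against 36.4% of all genes. These were 5 wrt, 6 grd, 16 grl and 10 ptr genes and ptc-3. Relaxed lists hold weak calls by construction. No read counts were given, so the depth behind an absent peak is unknown.

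**Figure D5:**
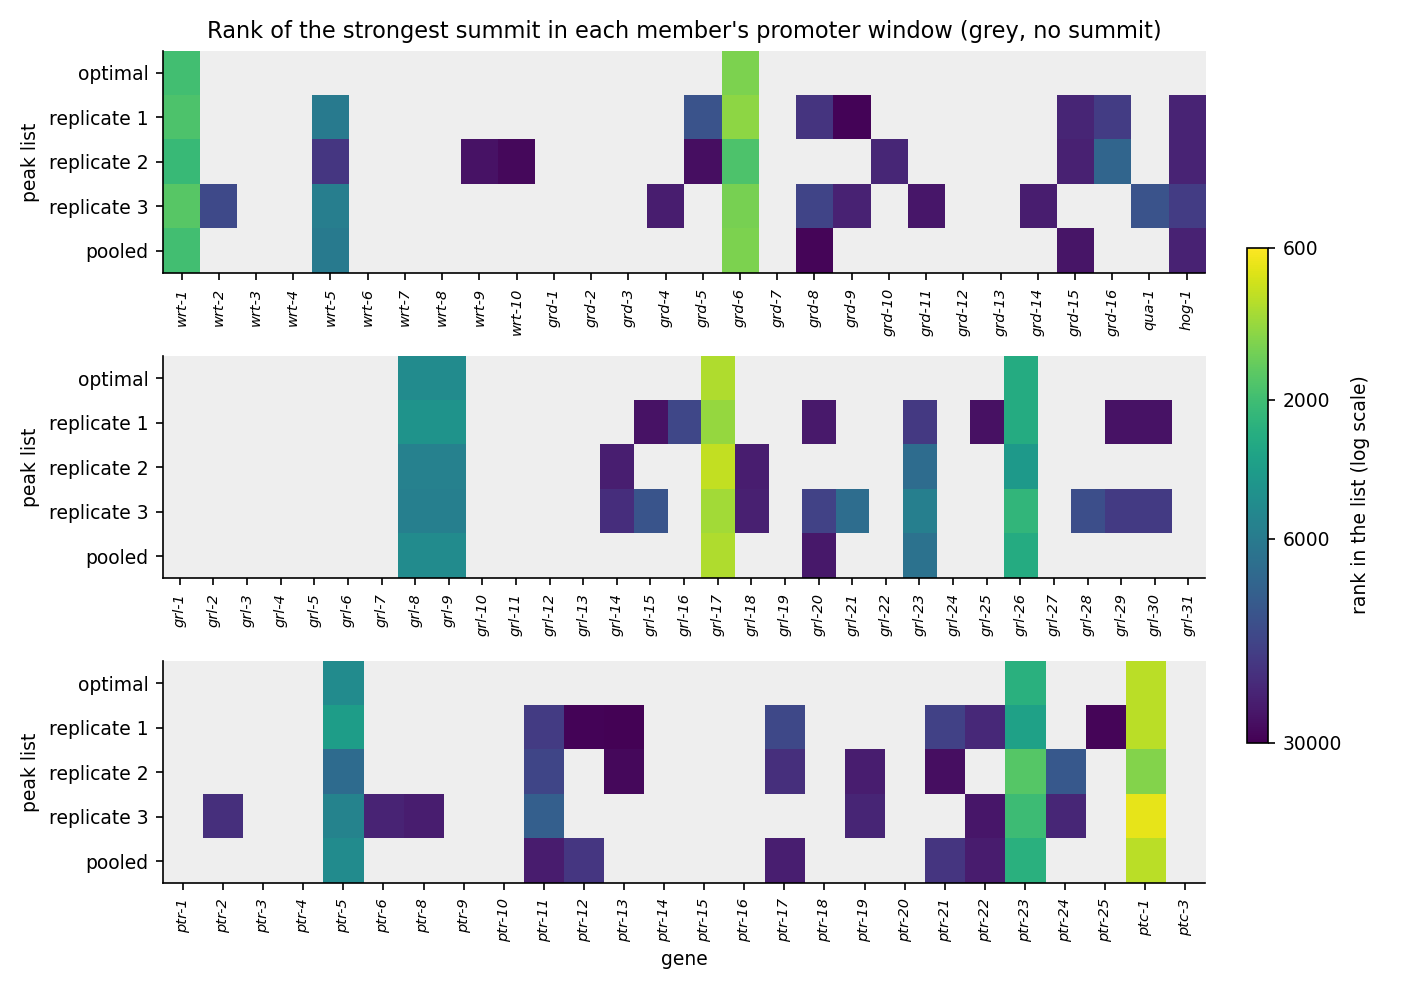
Rank of the strongest summit in the promoter window of each of the 85 members (columns) in each list (rows), on a logarithmic colour scale with grey for no summit. The 9 columns of members with an optimal summit are filled in all 5 rows, with ranks up to 7623. In the pooled row, wrt-5 and grl-23 come next with ranks 6119 and 6905.

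Other genes of hedgehog transport, processing and sterol sensing with pathway relatives, and genes of molting, were counted in the same way. Of 13 genes of the first kind, 4 had an optimal summit (30.8%), against the 25.5% of all genes. Among the strongest peaks of replicates 1, 2 and 3, summits lay at 3, 3 and 4 of them, against 25.7%, 26.1% and 25.8% of all genes. For so few genes these counts lay near the share of all genes. The 4 with an optimal summit included ncr-1 and ncr-2, homologues of the NPC1 cholesterol transporter (signals 121 and 46.8). The others were scp-1, the homologue of the sterol sensor SCAP (signal 77.9, 69 bp upstream of a start), and hmgr-1, which encodes HMG-CoA reductase (signals 131 and 124). Both hmgr-1 summits were nearer to another coding start, of eco-1 and of F08F8.10. The ncr-2 peak ranked 18442, 5109 and 5359 in the replicates, so that it stood far down in replicate 1. Those without an optimal summit included the Dispatched-related gene che-14, the patched-related gene daf-6, the GLI homologue tra-1 and the acyltransferase-related genes hhat-1 and hhat-2.

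Of 23 molting genes, 5 had an optimal summit (21.7%), against 25.5% of all protein-coding genes. Among the strongest peaks of replicates 1, 2 and 3, summits lay at 4, 5 and 6 of them, against 25.7%, 26.1% and 25.8% of all genes. The optimal share was thus near that of all genes, and the peaks named next are a description of single genes. The strongest lay at myrf-2 and myrf-1, which encode membrane-bound transcription factors (signals 232 and 202). This myrf-2 peak ranked 1179, 467 and 793 in replicates 1, 2 and 3, and this myrf-1 peak 667, 2340 and 1395. Each gene had a further, weaker optimal peak in its window, with signals of 76.5 (myrf-2) and 71.7 (myrf-1). These ranked 3710, 5611 and 9121 at myrf-2 and 6970, 2737 and 4632 at myrf-1 in the replicates. The other genes with an optimal summit were the epidermal GATA factor gene elt-1 (signal 128), the Period homologue lin-42 (signals 107 and 106) and the kinase gene nekl-3 (signal 54.5). The receptor genes nhr-23 and nhr-25, regulators of molting, had none in their windows.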

How the data were processed

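The deposited data were peak lists in narrowPeak format from 3 biological replicates, in ce11 and ce10. A relaxed list for each replicate and one for all pooled served as IDR input, and the authors derived the optimal, IDR-thresholded list from them, per the deposited notes. Beside the alignments, these notes give 1 further source for every relaxed list without describing it. The signal value was written by the authors' peak caller and was used only to describe and rank peaks within a list. Each deposited list also gave the −log10 of a q-value, which was 4.12 for every optimal peak and was not used. For the aligner and the peak caller, the sources used here give no name. Read depth per replicate is unknown, so no interval or floor that needs it was computed.

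The ce11 lists were joined to protein-coding genes of Ensembl release 115 (WBcel235, the same build) and to the RefSeq sequence of that assembly, with Python 3.11.15, pandas 2.3.3 and numpy 2.4.6. Of the 5993 optimal peaks, 27 repeated the interval of another, and such repeats were kept in every list. Replicates were compared at their 5993 peaks of highest signal. Ranks in replicates are of the strongest summit in the member's window. For genes of the other lists, they are of the replicate's strongest peak that covers at least 50% of the optimal peak. The window search was tested on simulated data. All members with an optimal summit are named, and up to 3 per family among those with a pooled summit alone, beside every gene of the other lists with an optimal summit. Members, lists and rules were chosen with earlier results of these data known. No test was made, since the design has 1 group. Alternatives were other windows, other ties of peak to gene, other thresholds and replicates left out. The B box motif was chosen after the sequences were seen.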

Additional observations from a re-analysis of the deposited data

How the results depend on the processing

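The count of 9 members was 9 with the most upstream start of each gene (against 24% of all genes) or with any overlap of peak and window (against 26.2%), 6 with each summit given to its nearest start (against 18%), 6 in the 2996 strongest peaks of the optimal list (against 17.5% of all genes) and 12 with gene bodies. It was 3 within 1000 bp before and 200 bp after a start, 1 within 500 bp before and 100 bp after and 20 in the pooled list. The shares of all genes at these settings were 19.9%, 15.9% and 43.2%. In the same order these 3 settings gave 2, 1 and 12 hedgehog-related and 1, 0 and 8 patched-related members. Nearest starts gave 3 hedgehog-related members, without grl-17, wrt-1 and grl-9. Leaving out each replicate in turn, by keeping optimal peaks that both others cover over at least 50% of their length, gave 8 to 9 members (against 22.3% to 23.2% of all genes), 6 hedgehog-related and 2 to 3 patched-related. The member lost without replicate 2 or without replicate 3 was ptc-1, whose replicate 1 peak was narrow. The mean count of 9.33 over replicates was 8.5 to 10 with 1 left out, 3.33 with the 1000 bp window, 5.33 with 2996 peaks from each and 30 in whole lists. In whole lists the share of all genes rose as well, to 47.1%, 48.3% and 48.7% in replicates 1, 2 and 3. For the 1000 bp window and the 2996 peaks, no share of all genes was computed per replicate. In the optimal list the share of all genes fell as well, from 25.5% to 19.9% with that window and to 17.5% in the 2996 strongest peaks. The cause of the moves in these counts was not tested beyond the narrower windows and the shorter or longer lists themselves. Signals of single peaks were the same wherever the peak was kept. No paired analysis was possible because there is a single group.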

Other observations

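Several members lie next to each other. In the order of coding genes along the chromosomes, 12 members formed 5 runs. The pair of grl-9 and grl-8 had a shared optimal summit, and in the pair of wrt-1 and wrt-10 wrt-1 alone had one. The runs of grd-13, grd-3 and grd-10 on chromosome IV, of grl-29, grl-30 and grl-31 on chromosome V, and of grd-14 and grd-4 on X had none in their windows. Farthest of the members from any optimal summit were the warthog genes wrt-7 and wrt-8, whose nearest ones lay 57597 and 50521 bp upstream on chromosome V. Within 50000 bp, 83 of 85 members had one (97.6%), against 94.6% of all genes. In replicates 1 and 3, a single weak peak served both grl-29 and grl-30 (ranks 24839 and 15481).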
